A study of Homo sapiens with 100 samples.

Results

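The nuclear-encoded subunits of the respiratory chain were followed at the transcript level in TMD8, an established human lymphoma line (diffuse large B cell, activated B cell class). Members were chosen by gene symbol alone: the NDUF subunits of complex I, SDHA to SDHD of complex II, the UQCR subunits and CYC1 of complex III, 11 named COX subunits of complex IV, and the ATP5 subunits of complex V. The name pattern matched 136 of 78894 gene rows. Of these, 79 were subunit genes, with 36 in complex I, 4 in complex II, 9 in complex III, 12 in complex IV and 18 in complex V. NDUFA4 was counted in complex IV, where its protein is known to sit. The other 57 rows were ATP5 pseudogenes whose names fit the pattern. None of them was tested in the 24 h set, and the highest averaged 2.92 counts per library, so they are not described further.

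Bulk RNA was sequenced from transcript 3' ends in 100 libraries. The 24 h set held 6 A428D clones and 5 wild-type (WT) clones, each a culture grown from a single cell, under zelebrudomide, bexobrutideg, pomalidomide, venetoclax, each of the first 3 combined with venetoclax, and the solvent DMSO. The 8 conditions and 11 clones made 88 libraries in 16 groups. Untreated cultures of every clone and of the parental line added 12 libraries. All cultures grew in Alpha MEM with nucleosides and fetal bovine serum. The A428D change lies in BTK at its own locus according to the growth and design texts, although the sample titles attach it to SF3B1, and 3' end counts cannot check it. Zelebrudomide is a BTK degrader that also removes the transcription factors IKZF1 and IKZF3 through cereblon. Bexobrutideg degrades BTK without that activity, pomalidomide degrades IKZF1 and IKZF3, and venetoclax blocks BCL2, a protein that keeps cells from apoptosis. The labels name no dose. Clones are separate cultures of 1 cell line, so spread between them is not spread between patients.

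The respiratory chain sits in the inner mitochondrial membrane. Complexes I and II pass electrons from NADH and succinate to ubiquinone, complex III passes them to cytochrome c, complex IV passes them to oxygen, and complex V uses the resulting proton gradient to make ATP. Most subunits are encoded in the nucleus and imported, while a small core of complexes I, III, IV and V is encoded in mitochondrial DNA, so that both sets of transcripts are needed for assembly. A class of diffuse large B cell lymphomas is known for high levels of these transcripts, and BCL2 itself acts at the mitochondrial outer membrane.

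Promoters of these genes are known to be bound by NRF1, by ETS factors such as GABPA and by YY1. RefSeq promoter windows on GRCh38.p14, from 250 bases before to 50 bases after the start, were matched for 64 of the 79 subunit genes and searched on both strands. The NRF1 motif, searched as the run of capitals in the NDUFB4 stretch, was present in 4 windows (6.25%, against 1.36% of 27305 windows over all genes). The ETS letters CCGGAAG were present in 20 (31.2%, against 10.7%), and the YY1 letters AAGATGGC in 11 (17.2%, against 3.03%). At least 1 of the 3 was found in 32 of the 64 windows, against 14.1% of all windows. The only matches that overlapped each other were a pair of ETS matches on opposite strands of ATP5MK. Stretches upstream of the start are shown for members of complexes I, III, IV and V, to let the letters be seen in place; capitals mark a match. In the stretches shown, NDUFB4 holds NRF1 letters, UQCR11 a pair of ETS matches, and COX5B and ATP5PD 1 ETS match each. The COX5B window holds another ETS match nearer the start, outside its stretch. COX7B, a complex IV gene with some of the largest changes below, held none of the 3 in its window, which says nothing of the factors.
NDUFB4, chr3:120596159-120596308 (+): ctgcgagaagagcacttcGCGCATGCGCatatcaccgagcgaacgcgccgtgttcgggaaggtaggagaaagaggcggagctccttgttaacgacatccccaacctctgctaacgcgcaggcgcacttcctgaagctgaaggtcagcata
UQCR11, chr19:1605491-1605640 (-): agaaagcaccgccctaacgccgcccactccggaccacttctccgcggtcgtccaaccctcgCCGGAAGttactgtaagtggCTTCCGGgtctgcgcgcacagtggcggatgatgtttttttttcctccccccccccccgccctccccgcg
COX5B, chr2:97645890-97646039 (+): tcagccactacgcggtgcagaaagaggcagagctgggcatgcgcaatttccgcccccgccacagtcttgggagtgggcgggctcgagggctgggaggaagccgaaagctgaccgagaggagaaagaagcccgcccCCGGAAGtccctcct
COX7B, chrX:77899288-77899437 (+): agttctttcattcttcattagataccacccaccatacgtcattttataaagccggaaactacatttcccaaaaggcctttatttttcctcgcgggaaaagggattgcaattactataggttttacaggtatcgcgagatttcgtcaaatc
ATP5PD, chr17:75046986-75047135 (-): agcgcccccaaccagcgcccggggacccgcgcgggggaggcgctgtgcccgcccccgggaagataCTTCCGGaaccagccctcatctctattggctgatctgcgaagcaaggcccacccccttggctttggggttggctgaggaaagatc

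Counted reads, in units of 1000000, ran from 1.48 to 12.5 per library, with a median of 7.14, and the subunit genes together took 1.28% to 2.14% of them. The B cell genes MS4A1 (612 to 2460 counts per 1000000, CPM, on library totals) and CD79A (112 to 1020) were present in every library. The T cell genes CD3D and CD3E stayed at or under 0.551 on that scale, and CD2 at or under 1.86. Among fibroblast genes COL1A1 ran from 0.677 to 31.1, DCN from 0.296 to 11.5 and COL1A2 from 0.0 to 2.23. Among epithelial genes KRT8 ran from 0.612 to 4.76 and EPCAM from 0.0 to 1.65. All levels from here on are CPM on TMM-scaled totals. The WT library of clone 3 under bexobrutideg with venetoclax stood apart, with the lowest total (1.48). Its cytosolic ribosomal protein transcripts summed to 168000 CPM, against up to 407000 and a median of 364000 CPM in the other 24 h libraries, and its mitochondrially encoded subunits to 26700 CPM, against a median of 58800. Many of the results that rest on it are given with and without it. The WT count and median change for that combination against DMSO are given only with it. All 79 subunit genes passed the expression filter in every fit, with mean counts of 41.1 (ATP5MGL) to 6260 per library. For 29 of them more than 50% of libraries held a value that was not whole, as is left when a read is divided between features, so their counts may hold reads of near-identical copies. Among genes named below, this concerned ATP5MF (84% of libraries), COX7B (75%), UQCRB (73%), NDUFB5 (63%), NDUFB3 (60%), NDUFS5 (58%), ATP5MK (54%) and NDUFS1 (52%). In bulk libraries fewer cells of a kind and less RNA per cell cannot be told apart.

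Summed over complex I, the 36 transcripts reached 4080, 4590, 4430, 4250 and 4530 CPM in WT clones 1 to 5 under venetoclax, against 3150, 3500, 3310, 3360 and 3670 CPM in the same clones under DMSO. Each venetoclax library lay above every DMSO library, and the log2 change within a clone averaged 0.365, with clones between 0.305 and 0.418. Complex V followed with a mean change of 0.272 and complex II with 0.272, while complexes III and IV moved by 0.197 and 0.189, in each case upward in 5 of 5 WT clones. Complex I thus had the largest mean change of the 5 complexes, which were not tested against each other. In A428D clones the same sum reached 4560 ± 361 CPM under venetoclax and 4030 ± 323 CPM under DMSO (SD, n = 6), with a mean change of 0.178 that was upward in 6 of 6 clones. Complex V moved by 0.112 and complex II by 0.125, again upward in 6 of 6 A428D clones. Complex IV changed there by a mean of 0.0268, and 3 of 6 A428D clones were higher. That value depends on the scaling: on library totals without TMM, complex IV averaged 4200 CPM under venetoclax and 3930 CPM under DMSO in A428D clones.

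Over all 79 subunit genes the sum was 16800 ± 536 CPM in WT clones under venetoclax and 14100 ± 689 CPM under DMSO (SD, n = 5). In WT clones given zelebrudomide with venetoclax it was 19100 ± 1000 CPM, the highest group mean on this scale. In A428D clones the corresponding sums were 17500 ± 1220 CPM under venetoclax, 18500 ± 890 CPM under zelebrudomide with venetoclax and 16400 ± 1080 CPM under DMSO. Untreated clones of both genotypes averaged 17500 CPM (SD 977 for A428D, 784 for WT), and the parental line stood at 17200 CPM. The place of the untreated cultures among the groups depends on the scaling. With TMM their sums lay near those of the venetoclax groups. On library totals without TMM they were the highest groups in each of the 5 complexes. Complex V, for example, then averaged 5170 CPM under venetoclax and 6560 CPM untreated in A428D clones, and complex I 4500 CPM under venetoclax and 5030 CPM untreated in WT clones. They lay above the DMSO groups on library totals in every complex, and with TMM in the sum over all subunit genes. On library totals without TMM scaling the A428D DMSO sums were still above the WT ones, and venetoclax sums still above DMSO sums in both genotypes. On the same totals complex I reached 4550 CPM in WT clones under zelebrudomide with venetoclax and 4500 CPM under venetoclax, a smaller gap than the 4840 and 4370 CPM with TMM, and complex III averaged 3160 and 3120 CPM in the same order. Complex II turned round, at 311 CPM with the pair and 323 CPM with venetoclax on library totals, against 331 and 314 CPM with TMM. The extra rise with zelebrudomide thus depends on the scaling in its size, and in complex II in its direction.

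**Figure D1:**
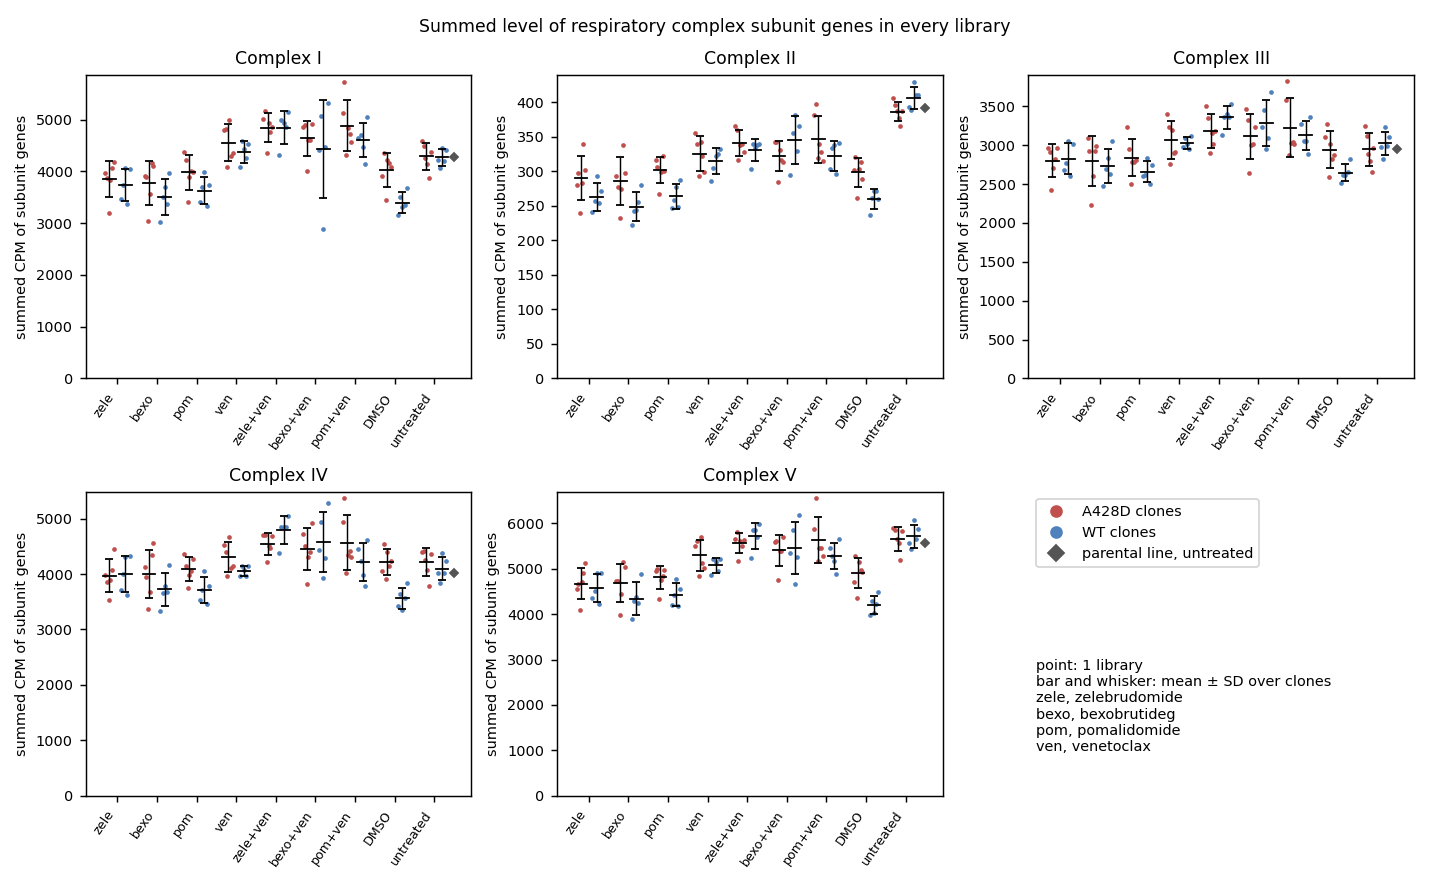
Summed level of the subunit genes of each respiratory complex, in CPM on TMM-scaled totals (vertical axis, from 0), for each treatment (horizontal axis); points are libraries, red for A428D clones and blue for WT clones, bars are means with SD, and the grey diamond is the untreated parental line. In complex I the WT venetoclax libraries (4080 to 4590 CPM) lie above all WT DMSO libraries (3150 to 3670 CPM), and 1 WT library under bexobrutideg with venetoclax lies apart at 2890 CPM.

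Venetoclax against DMSO asked how these transcripts respond to BCL2 inhibition. In WT clones 45 of 79 subunit genes rose and 1 fell (edgeR quasi-likelihood test, adjusted p under 0.05), where 15.4% of all genes tested rose and 17.4% fell. The members' median log2 change was 0.28, and 24 of 36 complex I genes, 1 of 4 in complex II, 5 of 9 in complex III, 5 of 12 in complex IV and 10 of 18 in complex V rose. In A428D clones 13 rose and 1 fell, where 8.05% of all genes rose and 8.78% fell, and the median change was 0.13. With the clone as a block the A428D counts became 23 higher and 3 lower, where 13.6% of all genes rose and 17.1% fell. The A428D count also moved when 1 clone was left out, from the 14 called here to 8 without A428D clone 2, 9 without A428D clone 3 or 4, and 22 without WT clone 3. Without the library of the lowest total it was 23, and without the expression filter it was 5. Shares of all genes called are not given, here or below, for DESeq2 or for fits without a clone, that library or the filter. A change in such a count thus cannot be told from one over all genes. Under venetoclax the medians of other genes with transcripts under 1000 bases were 0.01 in WT and -0.02 in A428D clones, against 0.27 and 0.12 for the 63 members of that length.

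ATP5MC1 (chr17:48892765-48895871, + strand, GRCh38), 1 of the genes for the membrane ring of complex V, showed the largest rise with venetoclax in both genotypes. It stood at 122, 147, 161, 140 and 155 CPM in WT clones 1 to 5 under venetoclax, against 74.6, 87.0, 83.0, 75.7 and 84.0 CPM under DMSO. The WT groups did not overlap, and the log2 change was 0.81 ± 0.17 (SE; edgeR adjusted p = 8.11e-05), upward in 5 of 5 clones. In A428D clones the lowest, median and highest values were 123, 138 and 168 CPM under venetoclax and 69.4, 99.6 and 105 CPM under DMSO, with a change of 0.56 ± 0.15 (edgeR adjusted p = 0.00639). Its sister genes for the same ring did not all do this: ATP5MC3 rose in all 8 comparisons of a venetoclax-containing treatment with DMSO (log2 changes of 0.24 to 0.59), and ATP5MC2 rose in none of them. Among stalk and membrane subunits of complex V, ATP5PF (chr21:25716503-25735673, - strand) stood at 301, 352, 352, 318 and 329 CPM in WT clones under venetoclax, against 219, 253, 217, 220 and 239 CPM under DMSO (log2 change 0.49, edgeR adjusted p = 1.49e-05). Its A428D values were 290, 341 and 404 CPM (lowest, median, highest) under venetoclax and 231, 295 and 305 CPM under DMSO, overlapping groups with a change of 0.27 (edgeR adjusted p = 0.0152). ATP5MK (chr10:103389041-103396492, - strand), a small membrane subunit, held 138, 160, 146, 149 and 147 CPM in WT clones under venetoclax, against 107, 112, 105, 92.6 and 111 CPM under DMSO. The catalytic subunit ATP5F1B moved little: 281, 326, 355, 340 and 378 CPM under venetoclax, against 246, 277, 296, 300 and 301 CPM under DMSO in WT clones (0.21 ± 0.08, edgeR adjusted p = 0.0314).

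In complex I the accessory subunit NDUFS6 (chr5:1801400-1816605, + strand), a zinc-binding protein of the peripheral arm, rose most. Its WT values were 156, 170, 178, 177 and 181 CPM under venetoclax and 88.8, 99.4, 101, 91.8 and 117 CPM under DMSO. The change was 0.76 ± 0.11 (edgeR adjusted p = 1.92e-07), and in A428D clones it was 0.55 ± 0.10 (edgeR adjusted p = 8.19e-05). NDUFS1, the largest core subunit of the arm that takes electrons from NADH, held 49.2, 48.5, 53.5, 52.0 and 51.9 CPM in WT clones under venetoclax, against 36.6, 37.2, 40.2, 37.5 and 32.6 CPM under DMSO. Here too the groups stood apart, with changes of 0.44 in WT (edgeR adjusted p = 0.00349) and 0.34 ± 0.11 in A428D clones (edgeR adjusted p = 0.0268). The accessory subunits NDUFS5 (0.58 ± 0.11, edgeR adjusted p = 2.19e-05), NDUFA3 (0.57 ± 0.19, 0.0159) and NDUFV3 (0.54 ± 0.10, 2.13e-05) rose in WT clones, each in 5 of 5. In A428D clones NDUFV3 (0.30) and NDUFA9 (0.30) were also called, as was CYC1 of complex III (0.32). NDUFB6 (chr9:32552999-32573184, - strand), of the membrane arm, held 182, 216, 193, 190 and 195 CPM in WT clones under venetoclax, against 140, 159, 138, 135 and 157 CPM under DMSO. The A428D ranges of NDUFB6, 183 to 234 CPM under venetoclax and 158 to 210 CPM under DMSO, overlapped.

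Complexes II, III and IV were more mixed. SDHB, the iron-sulphur subunit of complex II, stood at 119, 132, 128, 141 and 146 CPM in WT clones under venetoclax, against 90.5, 103, 109, 101 and 103 CPM under DMSO (0.37 ± 0.09, edgeR adjusted p = 0.00168). Its change in A428D clones was 0.18 and did not pass the test (edgeR adjusted p = 0.139). UQCRQ (chr5:132866560-132868031, + strand), a small membrane subunit of complex III, held 197, 222, 211, 196 and 196 CPM in WT clones under venetoclax, against 129, 144, 131, 133 and 151 CPM under DMSO (0.54, edgeR adjusted p = 6.33e-05). UQCRC2, a core protein of the same complex, did not follow, with 66.1, 69.9, 64.1, 68.9 and 72.6 CPM against 67.5, 64.2, 63.3, 71.9 and 63.7 CPM (0.01 ± 0.07, edgeR adjusted p = 0.906). COX4I1, an early-assembling subunit of complex IV, likewise had overlapping groups in WT clones, 541 to 574 CPM under venetoclax and 515 to 589 CPM under DMSO (-0.03 ± 0.09, edgeR adjusted p = 0.801). In A428D clones UQCRC2 changed by 0.01 (edgeR adjusted p = 0.945) and COX4I1 by -0.07 (edgeR adjusted p = 0.607).

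COX7B (chrX:77899438-77907373, + strand), a small subunit of complex IV, and COX7A2L (chr2:42333546-42425088, - strand), which is known to join complexes III and IV into supercomplexes, went opposite ways in WT clones. COX7B held 160, 178, 181, 149 and 164 CPM under venetoclax, against 103, 114, 90.0, 96.5 and 122 CPM under DMSO (0.63 ± 0.17, edgeR adjusted p = 0.00244). COX7A2L held 148, 139, 155, 146 and 146 CPM under venetoclax, against 164, 180, 159, 188 and 178 CPM under DMSO, lower in 5 of 5 clones (-0.27 ± 0.09, edgeR adjusted p = 0.0176). In A428D clones COX7A2L fell as well, to 141, 153 and 162 CPM (lowest, median, highest) under venetoclax, against 169, 188 and 206 CPM under DMSO (-0.32 ± 0.09, edgeR adjusted p = 0.00541). It was the only one of the 79 called lower in any of the 8 comparisons of a venetoclax-containing treatment with DMSO. COX7B in A428D clones ran from 133 to 184 CPM under venetoclax and 112 to 174 CPM under DMSO, and its change of 0.28 did not pass the test (edgeR adjusted p = 0.219).

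**Figure D2:**
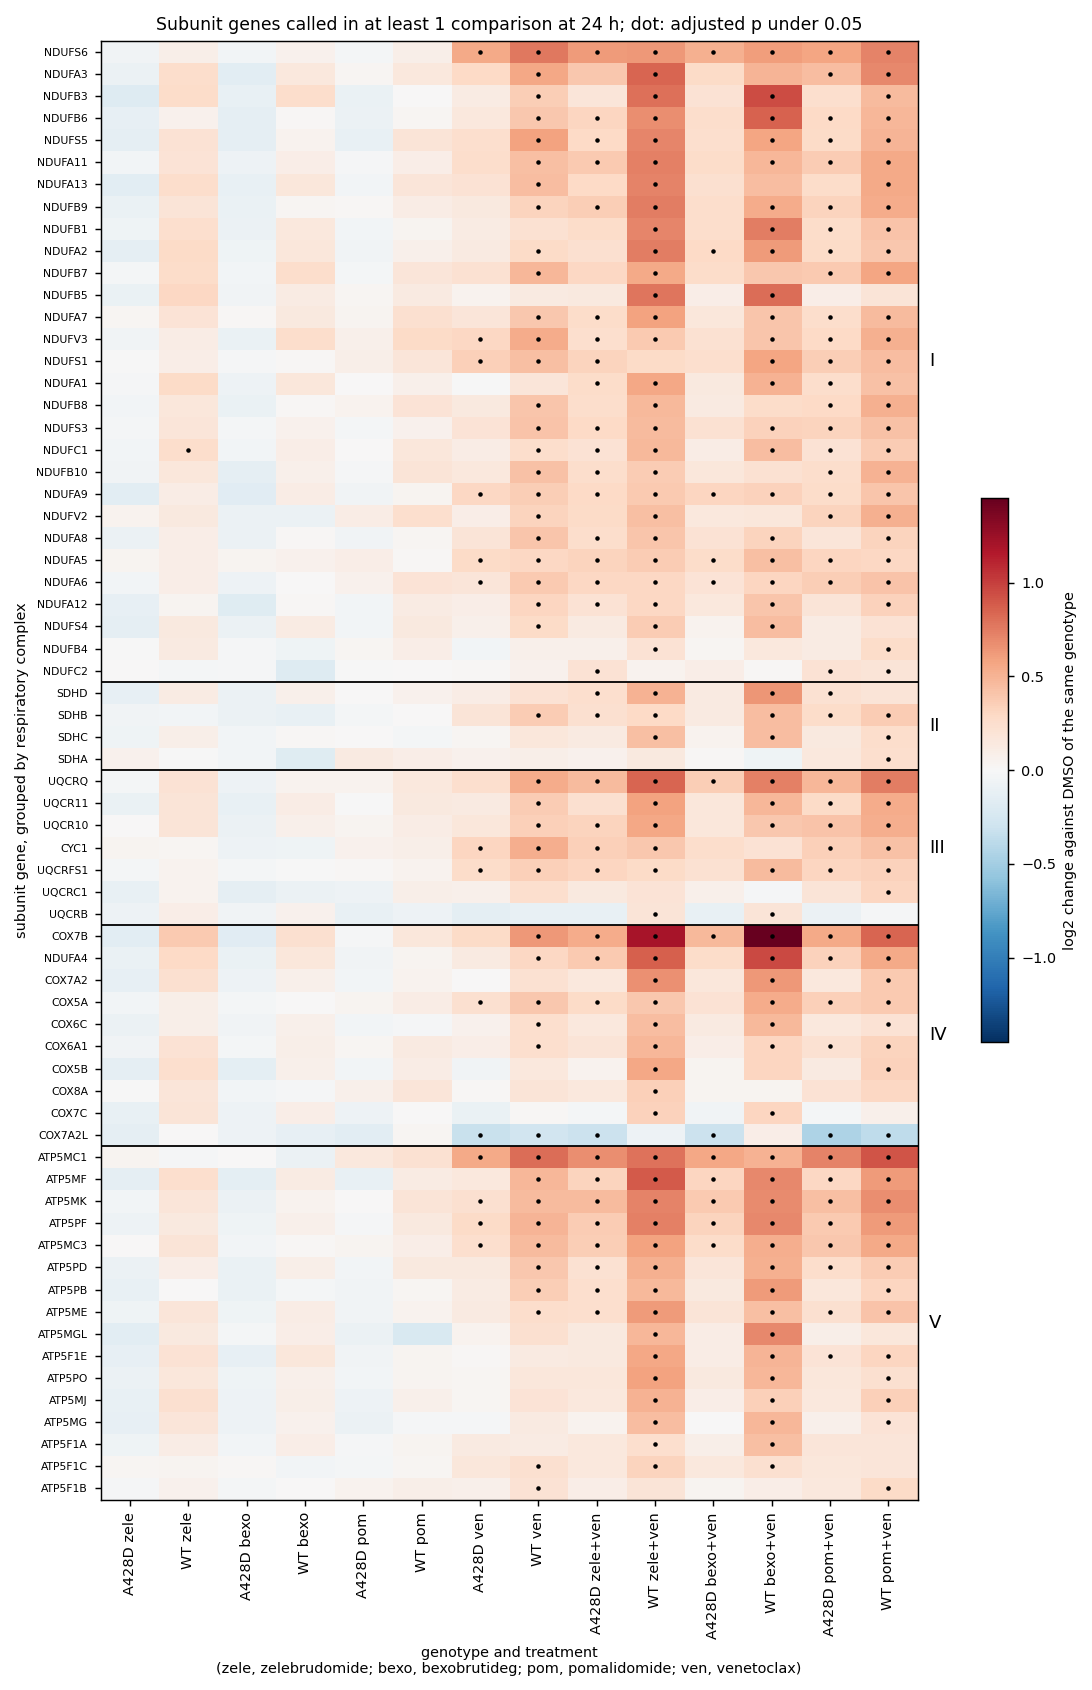
Log2 change against DMSO of the same genotype for the 65 subunit genes that rose in at least 1 comparison shown, and COX7A2L (rows, grouped by complex), under each treatment (columns, A428D left of WT); red is higher, blue is lower, and a dot marks an edgeR adjusted p under 0.05. Dots are dense in the venetoclax columns, with 45 higher in WT and 13 in A428D clones under venetoclax alone, and the single row of lower calls is COX7A2L.

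Combinations with venetoclax were then set against DMSO, again within each genotype. In WT clones 60 subunit genes rose with zelebrudomide and venetoclax (where 11.9% of all genes rose), 51 with bexobrutideg and venetoclax (10.8%) and 56 with pomalidomide and venetoclax (17.7%), where COX7A2L fell (19.0% of all genes lower). In A428D clones 35 rose with zelebrudomide and venetoclax (12.2% of all genes), 12 with bexobrutideg and venetoclax (7.02%) and 41 with pomalidomide and venetoclax (14.5%), and COX7A2L fell in each (14.0%, 8.67% and 15.9% of all genes lower). The median log2 changes were 0.45, 0.44 and 0.37 in WT clones and 0.23, 0.15 and 0.23 in A428D clones, in the same order of partners. All of these comparisons share the DMSO libraries of their genotype, so that they are not independent of each other or of venetoclax alone. Across the 8 comparisons, 65 of 79 subunit genes rose in at least 1, made up of 29 of 36 in complex I, 4 of 4 in complex II, 7 of 9 in complex III, 9 of 12 in complex IV and 16 of 18 in complex V. The 8 that rose in every one were ATP5MC1, NDUFS6, ATP5PF, ATP5MK, ATP5MC3, NDUFA5, NDUFA6 and NDUFA9, and 14 rose in none. Single comparisons among the 8 raised 7.02% to 17.7% of all genes. The shares of all genes that rose in at least 1, in every one or in none are not given, so these counts cannot be set against them. The A428D count for bexobrutideg with venetoclax was 13 in both directions, and it became 34 with the clone as a block (32 higher, where 12.9% of all genes rose). That count was 20 without A428D clone 5, 25 without WT clone 3, 20 without WT clone 4 and 29 without the library of the lowest total. The A428D count for pomalidomide with venetoclax, 42 in both directions, was 27 without A428D clone 2. Fitted on the groups compared alone, the counts for bexobrutideg with venetoclax were 29 in WT and 22 in A428D clones. Without the expression filter the A428D counts were 22, 7 and 27 in the order of partners above.

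COX7B had the largest change of the members in WT clones under 2 of the 3 combinations. It reached 193, 263, 281, 228 and 244 CPM in WT clones given zelebrudomide with venetoclax, against the DMSO values of 90.0 to 122 CPM, a 2.29-fold rise (1.20 ± 0.17 on the log2 scale, edgeR adjusted p = 1.24e-07). Under bexobrutideg with venetoclax it read 197, 248, 524, 199 and 270 CPM, the high value being the library of the lowest total. The change was 1.45 ± 0.17 with that library and 1.09 ± 0.16 without it (edgeR adjusted p = 7.16e-10 and 1.7e-07). Under pomalidomide with venetoclax it read 204, 189, 171, 146 and 243 CPM (0.84). In A428D clones its values were 180, 196 and 215 CPM (lowest, median, highest) under zelebrudomide with venetoclax and 112, 128 and 174 CPM under DMSO, groups that did not overlap (0.54 ± 0.15, edgeR adjusted p = 0.00641).

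NDUFA4 (chr7:10931951-10940256, - strand), of complex IV, read 340, 388, 409, 373 and 425 CPM in WT clones given zelebrudomide with venetoclax, against 213, 221, 194, 203 and 227 CPM under DMSO (0.87 ± 0.12, edgeR adjusted p = 4.07e-08). NDUFB3 (chr2:201071433-201085750, + strand), of the membrane arm of complex I, read 94.6, 104, 101, 101 and 115 CPM, against 58.1, 60.2, 56.5, 54.0 and 66.7 CPM (0.80 ± 0.12, edgeR adjusted p = 5.31e-07). ATP5MF (chr7:99448475-99466331, - strand), a membrane subunit of complex V, read 347, 465, 446, 424 and 476 CPM, against 216, 245, 203, 224 and 268 CPM (0.90 ± 0.12, edgeR adjusted p = 1.38e-08). In each of these genes the WT groups stood fully apart, whereas in A428D clones ATP5MF read 341 to 407 CPM and 247 to 363 CPM, and NDUFB3 78.2 to 107 CPM and 64.4 to 91.9 CPM, with overlap. UQCRQ (0.85 ± 0.11) and NDUFA3 (0.85 ± 0.19) completed the 6 largest WT rises under this combination. Bexobrutideg with venetoclax gave WT rises of 0.95 for NDUFA4, 0.95 for NDUFB3, 0.86 for NDUFB6, 0.81 for NDUFB5 and 0.75 for NDUFB1, which were 0.80, 0.82, 0.64, 0.61 and 0.64 without the library of the lowest total. Pomalidomide with venetoclax gave its largest WT rise in ATP5MC1, at 155, 165, 155, 128 and 166 CPM against 74.6 to 87.0 CPM under DMSO (0.91 ± 0.17, edgeR adjusted p = 9.98e-06). In A428D clones the largest rise was ATP5MC1 in each combination, with changes of 0.67, 0.56 and 0.72 for zelebrudomide, bexobrutideg and pomalidomide as the partner.

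**Figure D3:**
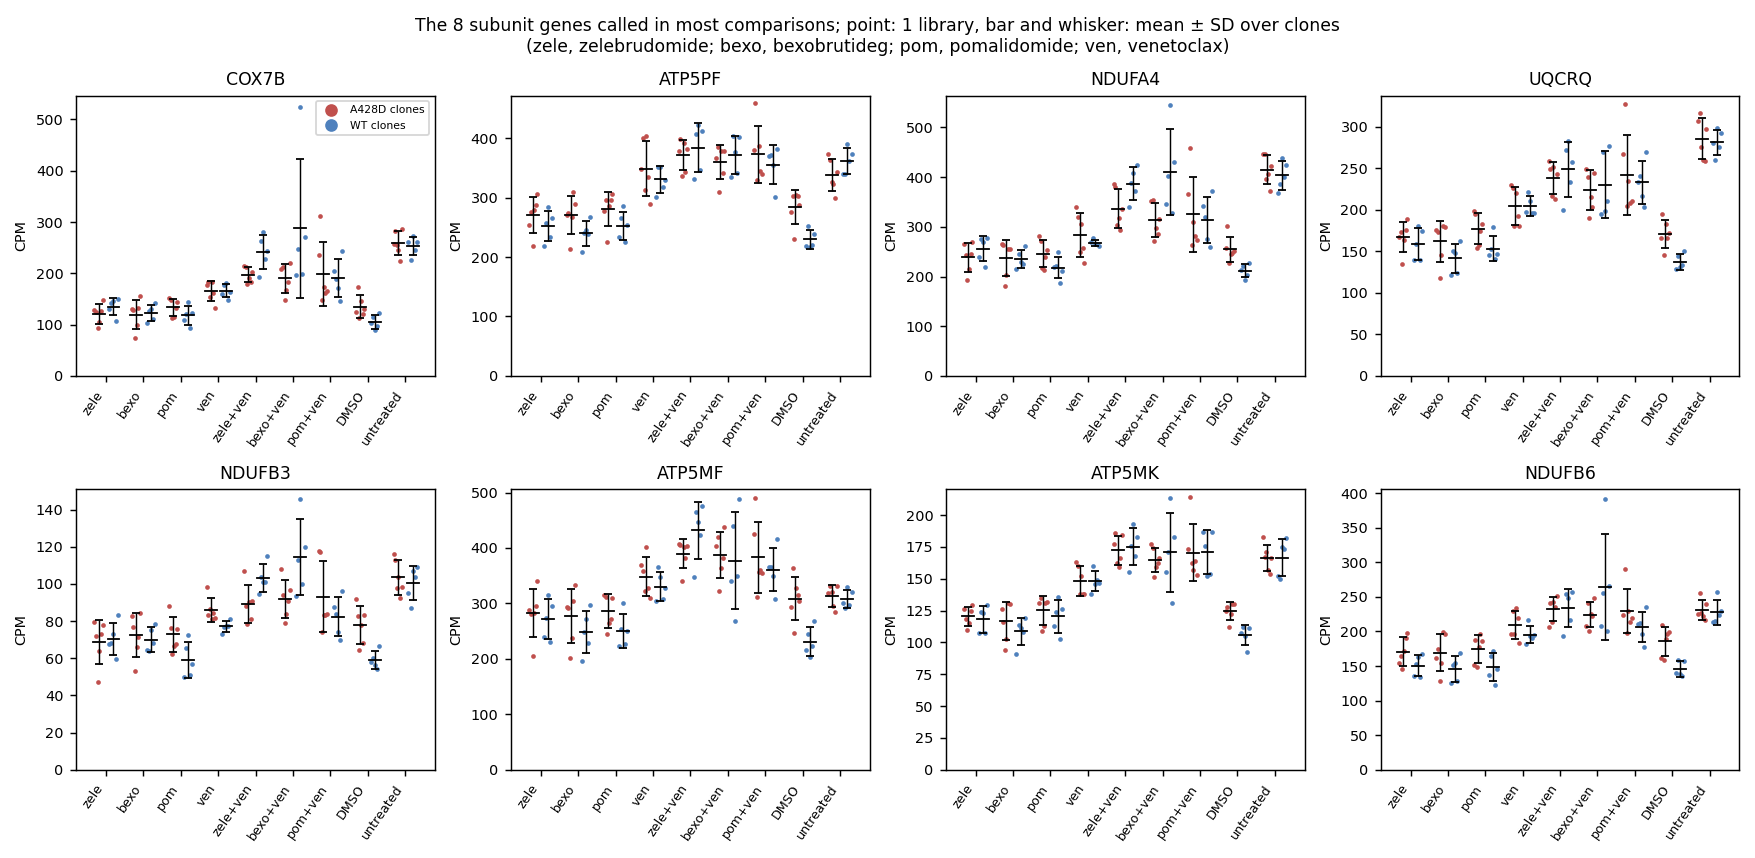
CPM on TMM-scaled totals (vertical axes, from 0) of 8 subunit genes called in the largest numbers of comparisons (NDUFA2, not shown, tied with the last of them), by treatment (horizontal axis). Points are libraries, red for A428D clones and blue for WT clones, with mean and SD. COX7B in WT clones reads 193 to 281 CPM under zelebrudomide with venetoclax and 90.0 to 122 CPM under DMSO, and 1 WT library under bexobrutideg with venetoclax reads 524 CPM.

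Set against venetoclax rather than DMSO, the combinations showed what each partner added. In WT clones 24 subunit genes were higher with zelebrudomide added (11.6% of all genes), and 20 were higher and 2 lower with bexobrutideg added (8.0% and 7.51%). None was called with pomalidomide added (edgeR; 5.31% of all genes higher), although 6 had an unadjusted p under 0.05, DESeq2 called 1 and the clone block called 10 (9.53% of all genes). In A428D clones none was called with zelebrudomide added (edgeR; 0.655% of all genes higher, 7 members at an unadjusted p under 0.05, 0 in DESeq2, 5 with the clone block, where 2.93% of all genes rose). With bexobrutideg added none was called by edgeR, by DESeq2, with the clone block or at an unadjusted p under 0.05, and 0.0% of all genes were. With pomalidomide added NDUFA1 (0.27, edgeR adjusted p = 0.0364) and UQCR10 (0.25, 0.0311) were higher (4.6% of all genes), and 11 with the clone block (8.72% of all genes). That count of 2 was 0 without A428D clone 2, 3 or 5, 1 without A428D clone 1, 4 or 6 or WT clone 4, and 4 without WT clone 3 or the library of the lowest total. The WT count of 24 for zelebrudomide was 12 without WT clone 4 and 14 without WT clone 5. Fitted on the groups compared alone, the WT counts in both directions were 40 for zelebrudomide, 4 for bexobrutideg and 6 for pomalidomide, and the A428D count for pomalidomide was 0. Without the expression filter they were 8 for zelebrudomide and 10 for bexobrutideg in WT and 0 for pomalidomide in A428D clones. For both of these settings the share of all genes called is not given.

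The genes that rose on adding zelebrudomide in WT clones were led by NDUFB5 of complex I, at 102, 110, 121, 121 and 117 CPM with the pair, against 78.4, 72.9, 79.3, 69.0 and 72.2 CPM with venetoclax (0.65 ± 0.15, edgeR adjusted p = 0.00064). No values overlapped. COX7B (0.57 ± 0.17, edgeR adjusted p = 0.0111), NDUFA4 (0.56 ± 0.12, 0.000267), NDUFB1 (0.49), NDUFA2 (0.47) and COX7A2 (0.45) followed, each higher in 5 of 5 clones. Cytosolic ribosomal protein transcripts moved along with this comparison, at 376000 CPM summed with the pair and 317000 CPM with venetoclax in WT clones, and their part in the result was not tested. With bexobrutideg added, COX7B (0.82), NDUFB5 (0.68), NDUFA4 (0.65), NDUFB3 (0.59), NDUFB1 (0.52) and NDUFB6 (0.47) rose, and NDUFV1 (-0.35) and NDUFA10 (-0.29) fell. Without the library of the lowest total the changes were 0.44, 0.47, 0.48, 0.45 and 0.40 for the first 5, all still called. The calls for NDUFB6 (0.24, edgeR adjusted p = 0.112), NDUFV1 (-0.17, 0.107) and NDUFA10 (-0.16, 0.106) were lost, and the count in both directions was 16.

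Alone, the other compounds moved at most 1 subunit gene past the test in the fit over all 24 h libraries, a count that depends on that fit in WT clones. Fitted on the groups compared alone, 26 subunit genes were higher in WT clones under zelebrudomide, 2 under bexobrutideg and 7 under pomalidomide, and none was called in A428D clones. The share of all genes called in those fits is not given, so a change in the members cannot be told from one in all genes. In WT clones zelebrudomide raised NDUFC1 of complex I, at 88.7, 92.9, 91.8, 84.2 and 99.3 CPM against 75.5, 82.4, 77.0, 72.5 and 78.4 CPM under DMSO (0.26 ± 0.08, edgeR adjusted p = 0.031; 3.05% of all genes rose). No zelebrudomide value lay below a DMSO value. With the clone block 18 subunit genes were higher, where 7.49% of all genes were, and the members' median change was 0.13. Without any of WT clones 1 to 4 the NDUFC1 call was lost, without A428D clone 1 the count was 2, and without the library of the lowest total it was 5. DESeq2 called 2, and none was called without the expression filter. Bexobrutideg in WT clones called none (edgeR; 2.45% of all genes in both directions, 4 members at an unadjusted p under 0.05, 0 in DESeq2), and the clone block called 3 higher and 1 lower (4.45% and 6.12% of all genes). Pomalidomide in WT clones called none (edgeR; 9.99% of all genes, 5 members at an unadjusted p under 0.05, 2 in DESeq2), and the block called 5 higher (9.76% of all genes). In A428D clones zelebrudomide (2.06% of all genes), bexobrutideg (0.0%) and pomalidomide (8.68%) called no member by edgeR or DESeq2. At an unadjusted p under 0.05 there were 0, 1 and 0 members in that order, and the clone block called 1 lower under zelebrudomide (2.87% of all genes) and 1 lower under pomalidomide (7.94%).

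Zelebrudomide shares BTK degradation with bexobrutideg and IKZF1 and IKZF3 degradation with pomalidomide, and it was set against each at 24 h. Since no dose is named, these 4 comparisons are of the treatments as used. In A428D clones no subunit gene differed from either compound by edgeR or DESeq2 or at an unadjusted p under 0.05, where 1.24% (against bexobrutideg) and 0.842% (against pomalidomide) of all genes did. The members' log2 changes lay between -0.13 and 0.14 against bexobrutideg and between -0.14 and 0.05 against pomalidomide. In WT clones none was called against bexobrutideg (edgeR; 1.23% of all genes, 3 members at an unadjusted p under 0.05, 1 with the block, where 4.43% of all genes were) or pomalidomide (edgeR; 7.43% of all genes, 7 at an unadjusted p under 0.05, 9 with the block, where 18.4% of all genes were), and DESeq2 called 0 in both. Fitted on the groups compared alone, 9 were higher under zelebrudomide than under pomalidomide, a fit for which the share of all genes is not given. Changes ran from -0.15 to 0.23 and from -0.24 to 0.36. COX7B differed by 0.14 ± 0.17 from bexobrutideg and 0.21 ± 0.17 from pomalidomide in WT clones (SE), sizes that leave room for a difference in either direction.

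A428D and WT clones were compared directly under DMSO, to ask whether the genotype itself came with another level. Under DMSO 20 subunit genes were higher in A428D clones and none lower, where 3.3% of all genes were higher. By complex these were 10 of I, 0 of II, 3 of III, 3 of IV and 4 of V, and 77 of 79 changes were above 0, with a median of 0.22 where the median of all genes was near 0. Complex IV summed to 4220 ± 233 CPM in A428D clones (n = 6) and 3560 ± 192 CPM in WT clones (SD, n = 5), and complex V to 4900 ± 329 and 4200 ± 207 CPM in the same order. On library totals without TMM the gaps were smaller, at 3930 and 3610 CPM for complex IV and 4560 and 4260 CPM for complex V. The size of the genotype difference thus depends on the scaling. ATP5MF led, with 247, 310 and 363 CPM (lowest, median, highest) in A428D clones and 216, 245, 203, 224 and 268 CPM in WT clones (0.39 ± 0.09, edgeR adjusted p = 0.0205). NDUFS5 read 60.0, 75.0 and 80.8 CPM in A428D clones and 47.6, 55.9, 55.7, 51.3 and 58.9 CPM in WT clones, without overlap (0.39 ± 0.09, edgeR adjusted p = 0.0193). NDUFB3 (0.38 ± 0.09), NDUFA13 (0.36 ± 0.08), NDUFA3 (0.33 ± 0.09) and NDUFB6 (0.32 ± 0.08) came next. Cytosolic ribosomal protein transcripts were also higher there, with 29 of 83 called and a summed 397000 CPM in A428D and 341000 CPM in WT clones, and their part in the result was not tested.

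The DMSO count was sensitive to single clones, and DESeq2 gave 35. It was 38 without A428D clone 1, 43 without A428D clone 3, 8 without A428D clone 4, 10 without A428D clone 5 and 6 without A428D clone 6. It was 3 without WT clone 1, 9 without WT clone 2, 3 without WT clone 3 and 4 without WT clone 4. Shares of all genes called in these fits are not given, so the swings cannot be set against all genes. In untreated cultures of the same clones 0 subunit genes were higher in A428D clones (edgeR; 3.5% of all genes higher, 9 members at an unadjusted p under 0.05 in either direction, 1 called by DESeq2) and 1 was lower (2.4% of all genes). That gene, NDUFS1, read 56.6, 59.6 and 63.9 CPM in A428D clones (lowest, median, highest) and 73.6, 69.9, 65.2, 66.8 and 65.5 CPM in WT clones, without overlap (-0.19 ± 0.05, edgeR adjusted p = 0.0312). The count of 1 was 5 without A428D clone 1, 2 without A428D clone 2, and 0 without any of A428D clones 3 to 6 or without WT clone 2 or 4. NDUFB3 and ATP5MF, higher in A428D clones under DMSO, averaged 103 and 314 CPM in untreated A428D clones and 100.0 and 308 CPM in untreated WT clones. The DMSO and untreated differences were not tested against each other.

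The response to each treatment was next compared between genotypes as an interaction, the log2 change in A428D clones minus that in WT clones. These tests share the DMSO groups in which A428D clones were already higher. For venetoclax alone no subunit gene differed (edgeR, 0.0% of all genes, 6 members at an unadjusted p under 0.05, 0 in DESeq2 and with the clone block). The median difference was -0.17 over the members and -0.001 over all genes, and 2 of the 79 members' differences were above 0. With no gene called, the larger number of WT calls is not shown to be a larger response gene by gene. With zelebrudomide and venetoclax 8 differed, all with a lower change in A428D clones (1.82% of all genes lower), and 31 did with the clone block (6.53% of all genes). They were 2 genes of complex I, 2 of IV and 4 of V: NDUFB3 (-0.62 ± 0.16, edgeR adjusted p = 0.0159), ATP5MF (-0.57 ± 0.16, 0.0248), NDUFA2 (-0.51 ± 0.15, 0.0402), COX7A2 (-0.51 ± 0.14, 0.0259), ATP5F1E (-0.43 ± 0.12, 0.0253), ATP5PO (-0.42 ± 0.11, 0.0178), ATP5MG (-0.40) and COX7C (-0.36). The count was 0 without A428D clone 2, 5 without A428D clone 3, 2 without A428D clone 4 or 5 and 3 without A428D clone 6. It was 1 without WT clone 2 or 4, 5 without WT clone 3, 2 without WT clone 5 and 14 without the library of the lowest total. Fitted on the groups compared alone it was 20, and without the expression filter 2. Of the 83 cytosolic ribosomal protein genes, 20 also had a lower change in A428D clones here, and their part in the result was not tested.

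With bexobrutideg and venetoclax 8 subunit genes differed between genotypes, again all lower in A428D clones (0.996% of all genes lower; 32 with the clone block, where 4.41% of all genes were; 17 in DESeq2). COX7B (-0.98 ± 0.23, edgeR adjusted p = 0.00862), NDUFB3 (-0.73 ± 0.16, 0.00502), NDUFB5 (-0.71 ± 0.20, 0.0358), NDUFA4 (-0.68 ± 0.16, 0.00862), NDUFB6 (-0.60 ± 0.15, 0.0171) and SDHD (-0.51 ± 0.13, 0.0222) had the largest differences, followed by ATP5PB (-0.48) and ATP5MG (-0.47). Fitted on the groups compared alone, no subunit gene was called for this combination, and without the expression filter 4 were. Without the library of the lowest total 5 genes were called. NDUFB3 stayed among them (-0.60, edgeR adjusted p = 0.0284), while COX7B (-0.61, 0.107), NDUFB5 (-0.51, 0.176), NDUFA4 (-0.52, 0.0556), NDUFB6 (-0.38, 0.153) and SDHD (-0.39, 0.107) did not pass. Values of ATP5PB and ATP5MG without that library are not given. The count was 5 without A428D clone 2, 4 without A428D clone 4 or 5, 5 without WT clone 2 or 5 and 1 without WT clone 3, whose combination library is the one of the lowest total. No member differed for zelebrudomide (edgeR; 1.04% of all genes, 19 at an unadjusted p under 0.05, 15 lower with the block, where 2.69% of all genes were, and 1 in the fit on the groups compared alone), bexobrutideg (0.615%, 3 at an unadjusted p under 0.05, 3 lower with the block, where 1.72% were), pomalidomide (0.0%, 0 and 0) or pomalidomide with venetoclax (0.00668%, 1 and 0). DESeq2 called 0 in each of these 4.

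**Figure D4:**
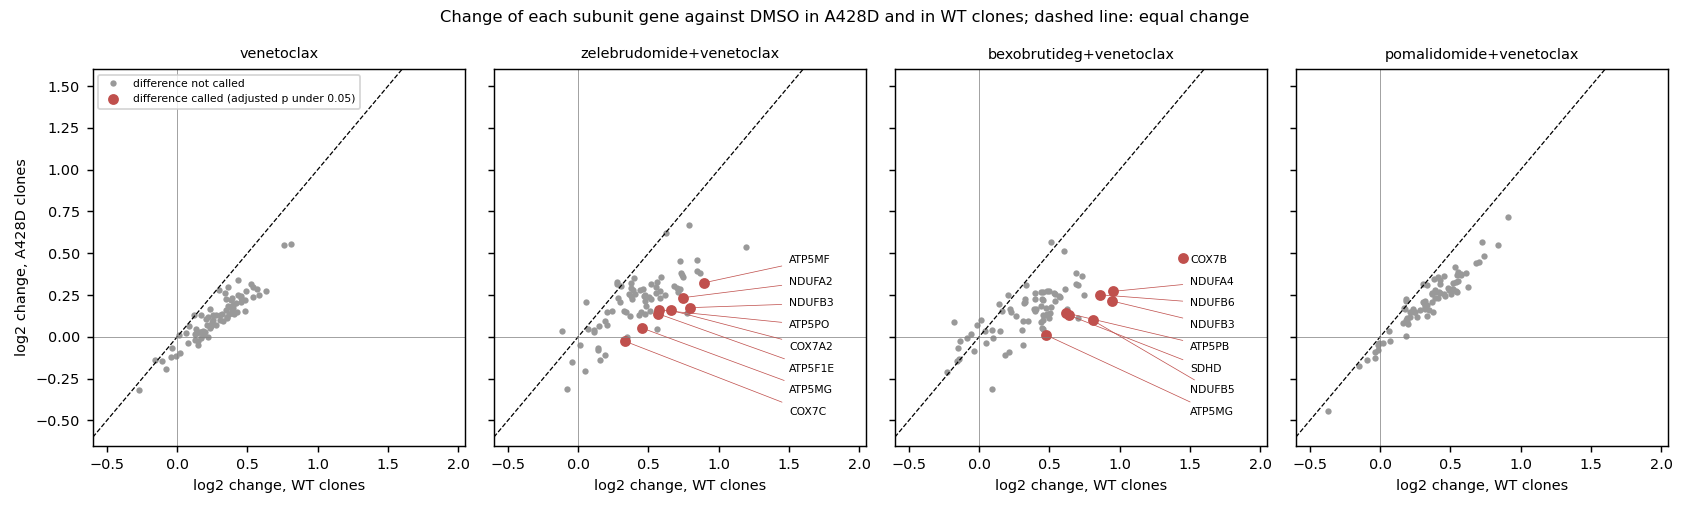
Log2 change of each of the 79 subunit genes against DMSO in A428D clones (vertical axis) and WT clones (horizontal axis) for venetoclax and the 3 combinations; the dashed line marks equal change, and red points with names have an edgeR adjusted p under 0.05 for the difference. The 8 named genes under each of zelebrudomide and bexobrutideg with venetoclax lie below the line, and none is named under venetoclax or pomalidomide with venetoclax.

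DMSO cultures were also set against untreated cultures of the same clones, which form a separate set, so that set and exposure cannot be told apart. In WT clones 12 subunit genes were higher and 53 lower under DMSO, where 35.7% and 36.4% of all genes were. In A428D clones 18 were higher and 40 lower (33.9% and 37.0% of all genes). By complex, the WT counts of higher and lower genes were 3 and 24 in I, 0 and 3 in II, 1 and 6 in III, 4 and 7 in IV, and 4 and 13 in V. ATP5MC1 was lower by the most, at 74.6, 87.0, 83.0, 75.7 and 84.0 CPM under DMSO, against 244, 223, 268, 242 and 263 CPM in untreated WT clones (-1.63 ± 0.08, edgeR adjusted p = 3.02e-15). In A428D clones it read 69.4, 99.6 and 105 CPM under DMSO and 206, 233 and 244 CPM untreated (lowest, median, highest; -1.29 ± 0.08, edgeR adjusted p = 4.66e-14). ATP5MC3 (-1.54), COX7B (-1.28), ATP5F1B (-1.09), UQCRQ (-1.04) and NDUFA4 (-0.94) followed in WT clones. ATP5F1B read 246, 277, 296, 300 and 301 CPM under DMSO, against 562, 584, 630, 604 and 627 CPM untreated in WT clones.

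A smaller group went the other way. In WT clones ATP5MGL (0.95), UQCRB of complex III (0.55), NDUFB1 (0.39), ATP5MC2 (0.37) and COX4I1 (0.35) were higher under DMSO. All 5 were also higher in A428D clones, at 0.93, 0.78, 0.64, 0.47 and 0.45. ATP5MGL averaged 41.1 counts per library, where every other subunit gene averaged at least 245. UQCRB read 510, 503, 519, 544 and 547 CPM under DMSO, against 329, 332, 397, 362 and 355 CPM untreated in WT clones. The ring genes of complex V thus split, with ATP5MC1 and ATP5MC3 lower and ATP5MC2 higher under DMSO. Cytosolic ribosomal proteins moved along, with 75 of 83 genes higher under DMSO in WT clones, where 35.7% of all genes were. Their sums were 341000 CPM under DMSO and 182000 CPM untreated, and their part in the result was not tested. On library totals without TMM scaling the untreated sums were larger still, for complex IV 4880 CPM in A428D and 4820 CPM in WT clones, against 3930 and 3610 CPM under DMSO. With TMM, complex IV in A428D clones showed almost no gap, 4220 CPM under DMSO and 4210 CPM untreated.

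Other gene lists place the subunits among mitochondrial transcripts at large. For scale, venetoclax raised 15.4% and lowered 17.4% of all genes in WT clones, and 8.05% and 8.78% in A428D clones. Under venetoclax in WT clones 56 of 77 mitochondrial ribosomal protein genes rose (median log2 change 0.37), as did 16 of 22 import genes (0.44; 1 lower), 12 of 18 complex I assembly factors (0.46; 1 lower), 13 of 25 complex IV assembly factors (0.32; 1 lower), 6 of 13 factors of complexes II and III (0.25) and 8 of 18 enzymes of the tricarboxylic acid cycle (0.28). In A428D clones the counts were 23, 10 (1 lower), 7, 6 (1 lower), 4 and 4, with medians of 0.18, 0.25, 0.30, 0.15, 0.18 and 0.18. Assembly and inhibitory factors of complex V gave 1 of 7 in WT and 0 of 7 in A428D clones. Of 13 chaperones and proteases 5 rose in each genotype, with 1 lower in WT clones. CYCS, which encodes cytochrome c, rose by 1.00 ± 0.15 in WT (edgeR adjusted p = 1.92e-07) and 0.60 ± 0.14 in A428D clones (edgeR adjusted p = 0.000895). NDUFA4L2, a relative of NDUFA4 known to be induced by low oxygen, fell by 2.39 ± 0.35 in WT (edgeR adjusted p = 2.21e-07) and by 2.72 ± 0.35 in A428D clones (edgeR adjusted p = 1.14e-07).

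Single genes of these lists changed by as much as the subunits did. In WT clones under venetoclax the import receptor gene TIMM50 rose by 0.88, the matrix co-chaperonin HSPE1 by 0.98, the complex I assembly factor NDUFAF8 by 0.87 and the fumarase gene FH by 0.74. Among 17 regulators of mitochondrial biogenesis 8 rose in WT and 5 in A428D clones, where 15.4% and 8.05% of all genes did. Among them were MYC (0.70 ± 0.19, edgeR adjusted p = 0.00347, and 0.57 ± 0.18, 0.0185) and TFAM (0.47 and 0.33), the packaging factor of mitochondrial DNA. NRF1 (0.02 and 0.03) and GABPA (-0.04 and 0.09), whose motif letters are described above, did not pass the test in either genotype. The change of YY1, whose letters are also described above, is not given here. Under zelebrudomide with venetoclax MYC stood at -0.08 in WT (edgeR adjusted p = 0.814) and 0.40 in A428D clones (edgeR adjusted p = 0.087). Whether any of these regulators had a part in the changes of the subunit genes was not tested.

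The mitochondrially encoded subunits did not follow the nuclear ones under venetoclax. None of the 13 was called in either genotype (32.8% of all genes in WT and 16.8% in A428D clones), with medians of -0.02 in WT and 0.00 in A428D clones. Their summed level was 50400 CPM under venetoclax and 52400 CPM under DMSO in WT clones, lower in 4 of 5 clones. The nuclear sum set over the mitochondrial one was 0.335 under venetoclax and 0.269 under DMSO in WT clones, higher in 5 of 5, and 0.336 and 0.316 in A428D clones. Under zelebrudomide with venetoclax 3 of 13 mitochondrially encoded genes rose in WT clones (11.9% of all genes), and the ratio there was 0.329. Of the 83 cytosolic ribosomal protein genes, 14 fell and 3 rose with venetoclax in A428D clones (median -0.19), where 8.78% and 8.05% of all genes did. In WT clones 4 were higher and 1 lower (-0.13) with venetoclax, where 15.4% and 17.4% of all genes were. Under zelebrudomide with venetoclax against DMSO 25 of the 83 rose in WT clones (0.12), where 11.9% of all genes did.

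**Figure D5:**
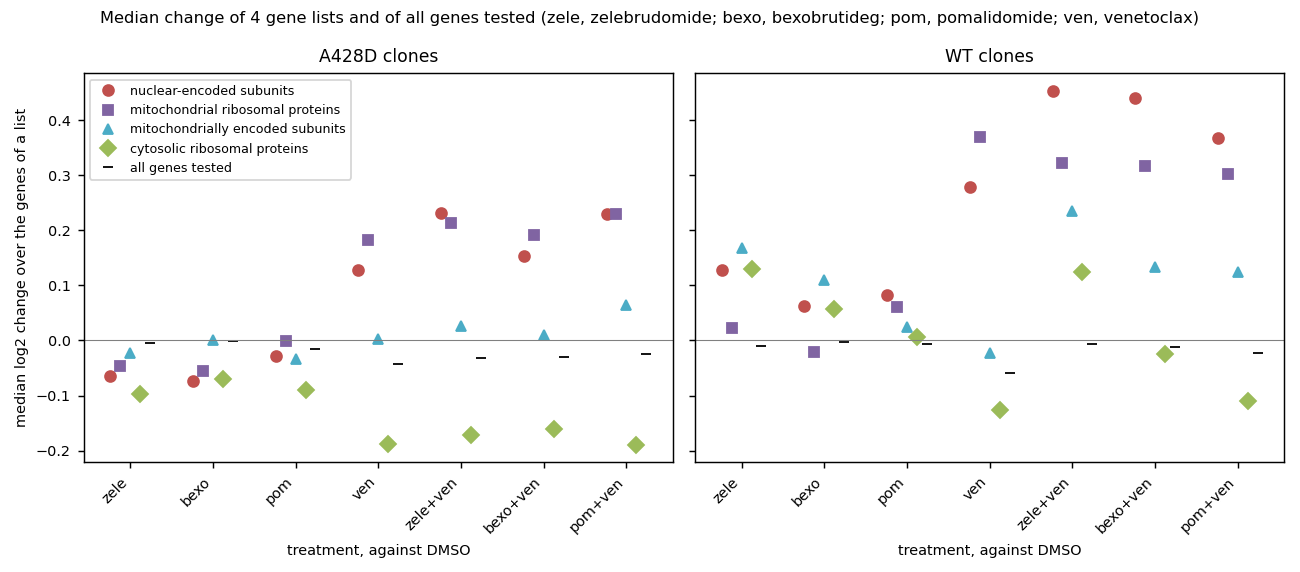
Median log2 change against DMSO (vertical axis) over the nuclear-encoded subunits, mitochondrial ribosomal proteins, mitochondrially encoded subunits and cytosolic ribosomal proteins, by treatment (horizontal axis) in A428D clones (left) and WT clones (right); dashes mark all genes tested. Under venetoclax the nuclear-encoded subunits stand at 0.28 in WT and 0.13 in A428D clones, while the mitochondrially encoded ones stand at -0.02 and 0.00.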

How the data were processed

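The labels' protocols describe lysis in a preservative and Illumina 3' end libraries made by a sequencing company. Per the submitters' processing notes, the tools were STAR 2.7.11 and SAMtools 1.22.1, featureCounts with Subread 2.1.1, fastp 0.24.0, edgeR, and for quality reports MultiQC 1.32 and FastQC 0.12.1, on GRCh38. The release of the annotation, the strand setting and any duplicate removal are not given in the sources used here, so antisense and overlapping genes cannot be told apart. The authors deposited 1 table of estimated counts, without normalisation, holding 78894 gene rows, of which 36134 have no symbol. Of the values 8.76% were not whole, and they were rounded, which changed the total by -0.0068%. The 92 spike-in rows (0.001% of a library or less) did not enter the tests. Group and clone come from the labels, and no pair of libraries agreed within sampling noise (lowest chi-square per degree of freedom 1.79).

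The test was edgeR's quasi-likelihood test (version 4.0.16, R 4.3.3), with TMM scaling, the default expression filter (minimum count 10, minimum total 15), robust estimates and Benjamini-Hochberg adjustment over all genes tested. Calls required an adjusted p under 0.05. The 24 h comparisons drew on 88 libraries and 14962 genes, the genotype comparisons on 11 libraries with 13397 genes (DMSO) or 14564 (untreated), and DMSO against untreated on 22 libraries and 15354 genes. No clone term was used. The script was tested on simulated data. Levels are CPM on TMM-scaled totals of all 100 libraries, and intervals of counting error were not computed for them because the clones give the spread.

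The same clones received every condition, so the clone pairs the 24 h libraries. Libraries of the same clone deviated together from their group means: the median correlation over the 500 most variable genes was 0.59 (lowest -0.11), against -0.16 for other clones. The fit with the clone as a replicate block was an alternative, beside DESeq2 1.42.0, edgeR's RLE scaling, no expression filter, only the groups compared, each clone left out, and the library of the lowest total left out. Summed levels were also taken on library totals. Genes were named by rule: in each comparison up to 6 called members a direction with the largest change, the 8 members called in most of the 35 comparisons, and 1 core subunit a complex. For the last of the 8, NDUFB6 and NDUFA2 tied at 11 calls, and NDUFA2 had the smaller summed change (8.08 against 8.38). The values of 1 member are not reported here. ATP5MC1, ATP5MC2, ATP5MC3, UQCRB, NDUFC1 and COX7A2L values per library, and single genes of other lists, were chosen after their values were seen. Members, lists and tests were chosen with earlier results of these data known. Gene positions are from GENCODE release 29 on GRCh38 and promoters from RefSeq on GRCh38.p14.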

Additional observations from a re-analysis of the deposited data

Results flagged for a closer look

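Summed levels were examined for single clones far from the rest of their group with Dixon's test, in 90 combinations of complex and group. It singled out 5 of the 90, where chance alone would give about 1 in 20, so the number found is close to that rate. Sums of different complexes in the same library are not independent of each other. A428D clone 3 accounted for 4: complex I at 4010 CPM under bexobrutideg with venetoclax and at 3190 CPM under zelebrudomide, and complex V at 4750 CPM under bexobrutideg with venetoclax and at 4330 CPM under pomalidomide, each the lowest of 6 clones. The other was WT clone 1, the lowest of 5 in complex II at 304 CPM under zelebrudomide with venetoclax.

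The difference in response between A428D and WT clones passed the interaction test for 8 subunit genes in each of 2 combinations, of which the 6 with the largest differences are listed for each, as a log2 difference, A428D minus WT. With zelebrudomide and venetoclax these were NDUFB3 (-0.62), ATP5MF (-0.57), NDUFA2 (-0.51), COX7A2 (-0.51), ATP5F1E (-0.43) and ATP5PO (-0.42). With bexobrutideg and venetoclax they were COX7B (-0.98), NDUFB3 (-0.73), NDUFB5 (-0.71), NDUFA4 (-0.68), NDUFB6 (-0.60) and SDHD (-0.51). NDUFB3 was in both sets of 6, and ATP5MG (-0.40 and -0.47), outside them, was also called for both combinations. With only the groups compared fitted, no gene was called for bexobrutideg with venetoclax. The 2 tests share both DMSO groups. Counts with single clones left out, and without the library of the lowest total, stand beside these results above.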

How the results depend on the processing

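Counts of members called, in both directions, were recomputed under each alternative; none of the recomputed changes of a called gene reversed. Of the recomputed counts 476 stayed within 1.5 times the main count, 71 did not, 20 were above 0 where the main count was 0, and 18 became 0; the cause was not tested. DESeq2 gave 2 for WT zelebrudomide, 2 for WT pomalidomide, 1 for WT pomalidomide with venetoclax against venetoclax, 17 for the bexobrutideg with venetoclax interaction and 35 for A428D against WT under DMSO. RLE scaling gave 1 for WT pomalidomide.

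Without the expression filter the counts were 0 (WT zelebrudomide), 5 (A428D venetoclax), 22 (A428D zelebrudomide with venetoclax), 7 (A428D bexobrutideg with venetoclax) and 27 (A428D pomalidomide with venetoclax). Against venetoclax they were 8 and 10 for zelebrudomide and bexobrutideg in WT and 0 for pomalidomide in A428D clones. The zelebrudomide and bexobrutideg combination interactions gave 2 and 4, and untreated A428D against WT gave 3. Many more genes are then tested.

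With only the groups compared the counts were 26, 2 and 7 for WT zelebrudomide, bexobrutideg and pomalidomide, 29 and 22 for bexobrutideg with venetoclax in WT and A428D, and 9 for WT zelebrudomide against pomalidomide. Against venetoclax they were 40, 4 and 6 in WT for the 3 partners and 0 for A428D pomalidomide. The interactions gave 1 for zelebrudomide, 20 for its combination and 0 for that of bexobrutideg. Shares of all genes called in these fits are not given.

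With the clone as a replicate block they were 18, 4 and 5 for WT zelebrudomide, bexobrutideg and pomalidomide, 1 and 1 for A428D zelebrudomide and pomalidomide, 26 for A428D venetoclax and 34 for A428D bexobrutideg with venetoclax. Against venetoclax they were 10 for WT pomalidomide and 5 and 11 for A428D zelebrudomide and pomalidomide. WT zelebrudomide against bexobrutideg and pomalidomide gave 1 and 9, and the interactions 15, 3, 31 and 32 for zelebrudomide, bexobrutideg and their combinations. Other blocked counts stayed within 1.5 times.

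Without the library of the lowest total the counts were 5 and 1 for WT zelebrudomide and pomalidomide, 23, 29 and 4 for A428D venetoclax, bexobrutideg with venetoclax and pomalidomide with venetoclax against venetoclax, 1 for WT zelebrudomide against pomalidomide, and 14 and 5 for the zelebrudomide and bexobrutideg combination interactions.

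Leaving out 1 clone at a time gave 3 to 43 for A428D against WT under DMSO and 0 to 5 untreated. Against DMSO it gave 8 to 22 (A428D venetoclax), 11 to 25 (A428D bexobrutideg with venetoclax), 27 to 52 (A428D pomalidomide with venetoclax), 0 to 2 (WT zelebrudomide), 41 to 52 (WT venetoclax) and 50 to 60 (WT zelebrudomide with venetoclax). Against venetoclax it gave 0 to 4 (A428D pomalidomide) and 12 to 24 (WT zelebrudomide), and the interactions 0 to 9 and 1 to 10 for the zelebrudomide and bexobrutideg combinations. Shares of all genes called in the fits with a clone left out are not given.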
